A study of Homo sapiens with 24 samples.

Results

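A list of 46 genes of laminins, matrix glycoproteins, matrix proteoglycans and the enzymes that modify them was read by gene name from the mRNA tables of 4 aneuploid human cell lines and their parental lines. They were 13 genes of basement membrane proteins, 23 genes of the interstitial matrix, 6 genes of crosslinking enzymes and sulfatases, and 4 genes of cell-surface proteoglycans, out of 16742 genes listed in at least 1 table. A mean normalised count of at least 10 in at least 1 table was reached by 43 of the 46, and in every table by 27. LUM (highest mean 6.399), FBLN2 (4.97) and LAMA1 (4.09) stayed below 10 wherever they were listed, and the lowest genes kept were MFAP5 (15.4, listed in 1 table) and ELN (18.7).

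The study sequenced 24 libraries of 8 lines, 3 of each line. HCT116 is a near-diploid line from a colon carcinoma, and RPE1 is a near-diploid line from human retinal pigment epithelium immortalised with hTERT, the catalytic subunit of telomerase. HCT116 5/4 carries 4 copies of chromosome 5 and was sequenced beside HCT116, and RPE1 5/3 12/3 carries 3 copies of chromosomes 5 and 12, the latter gained spontaneously, and was sequenced beside RPE1. HCT116* 8/3 c7, a clone with 3 copies of chromosome 8, and RPE1* 21/3, with 3 copies of chromosome 21, were sequenced beside HCT116* and RPE1*, where the asterisk marks stable expression of histone H2B tagged with GFP. HCT116 5/4 was a gift from another laboratory, and the other 3 aneuploid lines were made by transfer of chromosomes in microcells. No line received a treatment, and all were grown in the same serum-containing medium in dishes.

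Each table gives 1 mean normalised count per gene, the authors' mean over the 3 aneuploid and the 3 parental libraries together. Such a mean is called a pool here, named after its aneuploid line. Library values were not used here, so no pool value has an SD or a test, and an aneuploid line is not compared with its parental line. With equal numbers of libraries of 2 lines, neither line's own mean can exceed its pool by more than 2-fold, but it can lie far below it, so a difference between pools can come from 1 of their lines alone. Between pools, a gene was compared by its mean per 1000000 of the pool's summed means, called CPM here. Where 4 values are given for a gene they stand in the order of the HCT116 5/4 pool, the HCT116* 8/3 c7 pool, the RPE1 5/3 12/3 pool and the RPE1* 21/3 pool. Between genes, the mean was divided by transcript length in kb and scaled to 1000000, which is called the length-scaled level. A gene was called higher in RPE1 when its CPM value was at least 2-fold higher in each RPE1 pool than in each HCT116 pool, in all 4 ratios, and higher in HCT116 by the reverse rule. A fold is the ratio of the geometric means of the 2 pools of each background. On this scale the median gene was lower in RPE1 than in HCT116 (log2 -0.37, a ratio of 0.775).

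Basement membranes are thin sheets under epithelia and around other cells. They are built from laminins, cross-shaped trimers of an alpha, a beta and a gamma chain, and from a collagen IV network, which nidogens and heparan sulfate proteoglycans join to the laminin sheet. The interstitial matrix between cells holds fibronectin, elastic fibres, hyaluronan-binding and small leucine-rich proteoglycans, and matricellular glycoproteins that bind cells and growth factors. A retinal pigment epithelium rests on Bruch's membrane, which has both kinds of matrix, whereas colon epithelium lies on a basement membrane and leaves most interstitial matrix to fibroblasts.

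The labels were first checked against defining markers. EPCAM and CDH1, which define epithelia, had 218 and 283 and then 87.5 and 126 CPM in the 2 HCT116 pools, while CDH1 was listed in neither RPE1 pool and EPCAM only in the RPE1 5/3 12/3 pool, at 0.207. CDX2, an intestinal transcription factor, was listed in the HCT116 pools only, and VIL1 and CDX1 in no pool. The epithelial keratins divided. KRT8 stood at 3281, 2975, 853 and 885 CPM and was higher in HCT116 by the rule. KRT18 stood at 1458, 1030.2, 542 and 711 CPM and met neither rule, so both stayed high in the RPE1 pools. KRT19 fell from 956 CPM in both HCT116 pools to 0.433 and 0.326 in the RPE1 pools, and KRT20 was listed in the HCT116 pools only. Of the retinal pigment epithelium markers, OTX2 was listed in the RPE1 pools only (31.1 and 22.2 CPM) and MITF was 18.5-fold higher there. BEST1 was 8.93-fold higher in RPE1, at means of 42.7 and 41.3 there. RLBP1 was listed in the RPE1 pools only, at means of 32.4 and 4.77. The pigment genes TYR and TYRP1 were listed in no pool, and RPE65 and PMEL were higher in the HCT116 pools. VIM, the mesenchymal intermediate filament, reached 7622 and 5828 CPM in the RPE1 pools against 24.9 and 5.302 in the HCT116 pools, and the 4 of 6 mesenchymal markers that could be compared were all higher in RPE1. Summed over their lists, the mesenchymal markers reached 42.3, 13.5, 8083 and 6372 CPM in the order of the HCT116 5/4 pool, the HCT116* 8/3 c7 pool, the RPE1 5/3 12/3 pool and the RPE1* 21/3 pool, and the epithelial markers 6020, 5393, 1396 and 1596. The part of these differences in those of the matrix genes was not tested. Of 5 endothelial or leukocyte markers, CDH5 was listed in no pool, PECAM1 only in the RPE1 5/3 12/3 pool (mean 14.6) and PTPRC only in the RPE1 pools (means 6.85 and 10.9). VWF had means of 26.2 and 33.8 in the HCT116 pools and 6.22 in the RPE1 5/3 12/3 pool, and CD68, a lysosomal protein abundant in macrophages, was 16.1-fold higher in RPE1 (2.77, 5.32, 64.5 and 59.2 CPM). Summed over the 5 genes, these markers reached 4.13, 7.002, 65.7 and 59.8 CPM, and their part in the matrix differences was not tested.

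Comparison of all 4 pools was possible for 30 of the 46 genes, which were listed in each and had a mean of at least 10 in at least 1. Of these, 18 were higher in RPE1, against a background of 8.41% of 12963 genes, and 6 were higher in HCT116, against a background of 17.7%. The other 6 met neither rule. With pools scaled by the median ratio of all genes instead, 19 were higher in RPE1 and 5 in HCT116. Another 5 genes (BGN, DCN, POSTN, SULF1 and GPC6) had a mean of at least 10 in both RPE1 pools and were not listed in either HCT116 pool, a pattern of 3.46% of 15168 genes, and 1 gene (FBLN1) had the reverse pattern, which 5.38% of the genes had. The remaining 10 genes were LAMA1, NID1, ELN, MFAP5, EFEMP1, LUM, TNC, FBLN2, MGP and SULF2, each listed in only some pools or too low, and no call was made for them. The median ratio of RPE1 to HCT116 was 4.71 over the 30 genes. In these bulk samples fewer cells of a type and less RNA per cell cannot be told apart, and the effects of tissue of origin, karyotype and any difference in library preparation between the HCT116 and RPE1 pools cannot be told apart either.

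**Figure D1:**
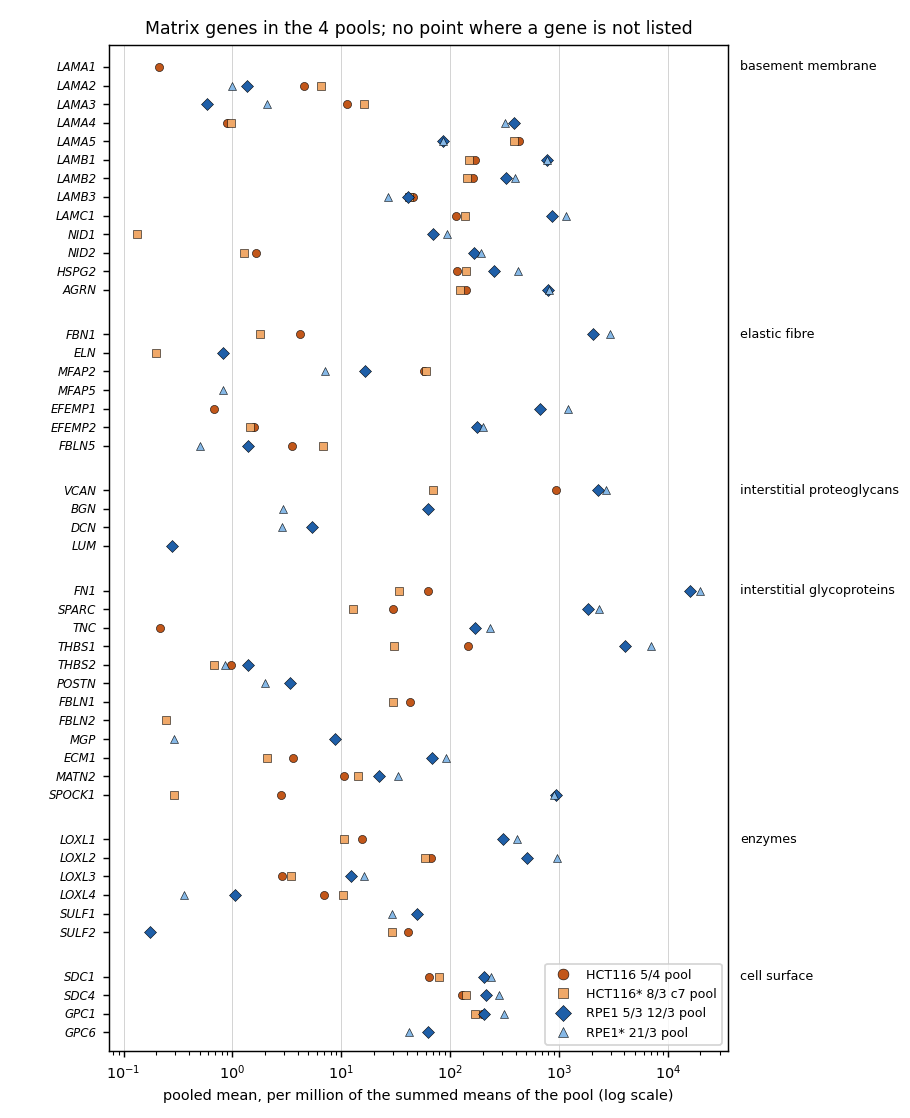
Pooled mean of each of the 46 genes in CPM, that is per 1000000 of the pool's summed means (x axis, log scale), grouped by role, with 1 symbol per pool: circles and squares for the HCT116 pools, diamonds and triangles for the RPE1 pools. Each symbol is the authors' mean over 6 libraries of 2 lines without an error bar, and none is drawn where a gene is not listed. The interstitial glycoproteins FN1, SPARC, TNC, THBS1, ECM1 and SPOCK1 lie far to the right in the RPE1 pools. LAMA2, LAMA3, LAMA5, MFAP2, FBLN5 and LOXL4 lie to the right in the HCT116 pools.

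The laminin alpha chains, which carry the domains that bind integrins and dystroglycan, differed in kind between the backgrounds. LAMA5 encodes the alpha chain of most adult epithelial basement membranes, and LAMA4 a truncated alpha chain of mesenchymal and vascular basement membranes. LAMA5 stood at 431 CPM in the HCT116 5/4 pool, 384 in the HCT116* 8/3 c7 pool, 86.5 in the RPE1 5/3 12/3 pool and 86.9 in the RPE1* 21/3 pool, so it was 4.69-fold higher in HCT116 (4.42 to 4.98 over the 4 ratios). LAMA4 stood at 0.897, 0.975, 389.9 and 323 CPM in the same order, so it was 379-fold higher in RPE1 (331 to 435). The groups of pools were far apart for both genes, and the pools of 1 background lay close together. The 2 HCT116 pools rested on means of only 17.3 and 19.6 normalised counts for LAMA4.

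Counted per length, LAMA5 made up 95.8% and 93.6% of the summed level of the 5 laminin alpha genes in the HCT116 pools and 12.27% and 14.5% in the RPE1 pools. LAMA4 made up 0.315% and 0.375% of that sum in the HCT116 pools and 87.4% and 85.0% in the RPE1 pools. The level of LAMA5 was 304 and 249.4 times that of LAMA4 in the HCT116 pools, and that of LAMA4 was 7.12 and 5.87 times that of LAMA5 in the RPE1 pools. The order of the pair was thus opposite in the backgrounds. The alpha sum itself differed less than either gene but was higher in each RPE1 pool: the length-scaled sums were 96.8, 86.1, 162 and 140.2.

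The other alpha chains were minor. LAMA3, the alpha chain of the laminin that anchors epithelia at hemidesmosomes, had 11.2, 16.04, 0.587 and 2.08 CPM in the same order, and LAMA2, the alpha chain of muscle and peripheral nerve, had 4.57, 6.53, 1.37 and 0.983. These were 12.1-fold and 4.70-fold higher in HCT116, and every HCT116 pool lay above every RPE1 pool. LAMA1, the alpha chain of early embryonic laminin, was listed in the HCT116 5/4 pool only, at a mean of 4.09.

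LAMB1, LAMB2 and LAMC1 differed in the other direction from LAMA5. LAMB1, the common beta chain, stood at 169.8, 149, 784 and 781 CPM in the 4 pools, 4.92-fold higher in RPE1. LAMC1, the gamma chain of most laminins, stood at 112, 139, 863 and 1174, which was 8.06-fold higher in RPE1. LAMB2, a beta chain of synapses and of kidney and vessel basement membranes, stood at 164, 143, 330.1 and 394 and only just met the rule, with its lowest ratio at 2.01. In these 3 genes the lowest RPE1 pool exceeded the highest HCT116 pool.

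LAMB3, the beta chain that pairs with LAMA3 in the hemidesmosomal laminin, stood at 45.3, 42.2, 41.3 and 27.1 CPM and met neither rule. The ranges of its backgrounds nearly touched, whereas LAMA3 was clearly on the HCT116 side. LAMC3, a gamma chain that is not among the 46 genes, had means of 422 and 366 in the HCT116 pools and was listed in neither RPE1 pool.

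The length-scaled level of LAMC1, 34.9 and 41.9 in the HCT116 pools, was lower than the alpha sum of the same pools (96.8 and 86.1), and in the RPE1 pools it was higher, with 286 and 395 against alpha sums of 162 and 140.2. The summed level of the 3 beta genes was above both in every pool, at 173, 149, 544 and 572. Since trimers need 1 chain of each kind, these mRNA values are given only as levels and say nothing of the amount of assembled protein.

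**Figure D2:**
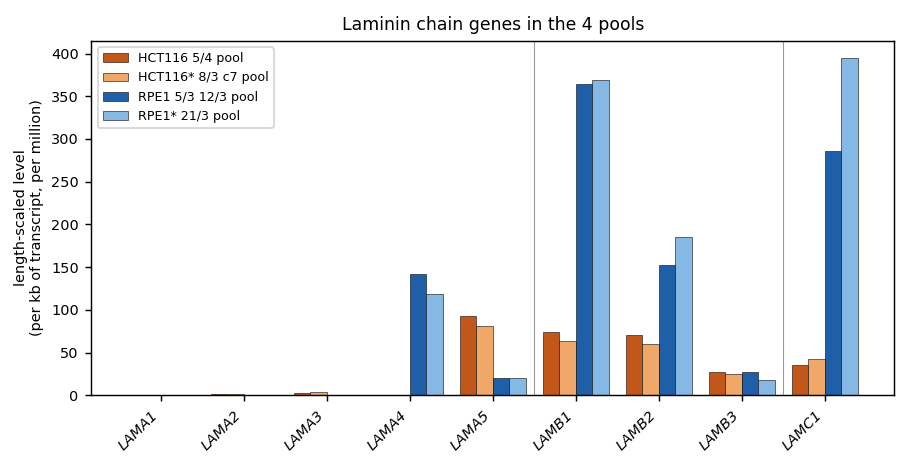
Length-scaled level (pooled mean per kb of transcript, scaled to 1000000) of the laminin alpha genes, beta genes and LAMC1, parted by grey lines, with 1 bar per pool and no error bars because each bar is the authors' mean over 6 libraries of 2 lines. The tallest alpha bar is LAMA5 in the HCT116 pools (92.7 and 80.6) and LAMA4 in the RPE1 pools (142 and 119), and genes without a visible bar are near 0 or not listed.

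Sequences before the start of 6 genes are printed because they belong to the leading alpha chain gene of each background (LAMA4 and LAMA5), to LAMB1 and LAMC1, and to the 2 interstitial glycoproteins described next. They are the 100 bases just before the RefSeq transcription start on GRCh38.p14, in the direction of the gene. LAMA4 is from chr6:112254568-112254667 and LAMB1 from chr7:108003162-108003261, both on the minus strand. LAMA5 is from chr20:62367313-62367412 on the minus strand and LAMC1 from chr1:183023320-183023419 on the plus strand. FN1 is from chr2:215436069-215436168 and SPARC from chr5:151686916-151687015, both on the minus strand. Capitals mark every GC box, the letters GGGCGG on either strand, with overlapping matches counted separately.
LAMA4: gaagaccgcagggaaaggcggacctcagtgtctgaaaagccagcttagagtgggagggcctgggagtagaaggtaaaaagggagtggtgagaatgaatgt
LAMA5: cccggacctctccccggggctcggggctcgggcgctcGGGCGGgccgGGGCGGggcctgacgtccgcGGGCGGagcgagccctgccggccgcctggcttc
LAMB1: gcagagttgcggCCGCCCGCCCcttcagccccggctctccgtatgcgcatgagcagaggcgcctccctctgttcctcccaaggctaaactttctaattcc
LAMC1: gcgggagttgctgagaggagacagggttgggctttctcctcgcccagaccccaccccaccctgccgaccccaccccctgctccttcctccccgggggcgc
FN1: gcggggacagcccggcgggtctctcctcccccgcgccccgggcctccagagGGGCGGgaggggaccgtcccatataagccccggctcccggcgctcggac
SPARC: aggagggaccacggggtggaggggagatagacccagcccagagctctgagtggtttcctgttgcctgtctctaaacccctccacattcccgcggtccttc

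In these windows LAMA5 held 3 GC boxes, LAMB1 2 that overlap, and FN1 1. LAMA4, LAMC1 and SPARC held none. Over the whole RefSeq window, 250 bases before to 50 after the start, the numbers of CpG dinucleotides were 8 in LAMA4, 41 in LAMA5, 35 in LAMB1, 41 in LAMC1, 38 in FN1 and 11 in SPARC, against a median of 14 over 35116 promoters. LAMA4 and SPARC were the 2 CpG-poor windows of the 6, and LAMA4 held the fewest. A window was given for 34 of the 46 genes, and 26 of these 34 had a GC box in at least 1 window, against 48.3% of all 27305 genes in the promoter table. The share was 9 of 11 among the basement membrane genes and 11 of 15 among the interstitial genes. A match is a run of letters and was not tested as a binding site.

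The other basement membrane genes were mostly higher in RPE1. NID2, nidogen 2, which links laminin to collagen IV, stood at 1.64, 1.27, 167 and 193 CPM and was 124-fold higher in RPE1 (102 to 151). NID1, nidogen 1, was not listed in the HCT116 5/4 pool, had a mean of 2.69 in the HCT116* 8/3 c7 pool, and reached means of 1617 and 1772 in the RPE1 pools. Both nidogens were thus near the bottom of the HCT116 lists and well within the RPE1 lists. AGRN, the heparan sulfate proteoglycan agrin, stood at 142, 123, 796 and 804 CPM, 6.06-fold higher in RPE1, with the pools of a background close together.

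HSPG2, which encodes perlecan, the large heparan sulfate proteoglycan of basement membranes, stood at 115, 141, 256 and 421 CPM. It was higher in each RPE1 pool than in each HCT116 pool, but its lowest ratio of 1.82 missed the rule. In all, 11 of the 13 basement membrane genes could be compared, 6 of them were higher in RPE1 (LAMA4, LAMB1, LAMB2, LAMC1, NID2 and AGRN), 3 were higher in HCT116 (LAMA2, LAMA3 and LAMA5) and 2 met neither rule. Over all 12963 genes compared, 8.41% were higher in RPE1 and 17.7% were higher in HCT116. The median ratio of the 11 was 2.57, against 0.775 over all genes compared. The 3 genes higher in HCT116 were all alpha chains.

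Among the interstitial glycoproteins, FN1 and SPARC stood out by level. FN1 encodes fibronectin, the adhesive glycoprotein that cells assemble into fibrils, and lies on chromosome 2 at 216225163 to 216300796 of GRCh37 on the minus strand. Its pooled means were 1210.3, 677, 368294 and 373337 normalised counts, or 62.8, 33.7, 16005 and 19764 CPM. It was 386-fold higher in RPE1 (255 to 586) and ranked 16 and 6 by length-scaled level among all genes of the RPE1 pools, and 7405 and 9197 among those of the HCT116 pools. SPARC, a collagen-binding glycoprotein that is also found in basement membranes, stood at 30.1, 12.8, 1859 and 2355 CPM and was 107-fold higher in RPE1. No HCT116 pool came near an RPE1 pool for either gene.

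THBS1, thrombospondin 1, which binds cells and activates latent TGF-beta, stood at 145, 30.7, 4059.8 and 7011 CPM, 80.0-fold higher in RPE1. SPOCK1, a secreted testican proteoglycan, stood at 2.82, 0.292, 934 and 906, and ECM1, a secreted glycoprotein that binds perlecan and fibulins, at 3.58, 2.10, 68.1 and 92.3. The first was 1015-fold and the second 28.9-fold higher in RPE1, where the 1015-fold value rests on means of 54.3 and 5.85 normalised counts in the HCT116 pools. TNC, tenascin-C, a glycoprotein of developing and healing tissue, had means of 3903 and 4380 in the RPE1 pools, 4.16 in the HCT116 5/4 pool and was not listed in the other. POSTN, periostin, was listed only in the RPE1 pools, at means of 77.3 and 37.4.

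The remaining interstitial glycoproteins were mixed. FBLN1, fibulin 1, had means of 830.4 and 596 in the HCT116 pools and was not listed in either RPE1 pool. THBS2, thrombospondin 2, stood at 0.978, 0.673, 1.402 and 0.849 CPM, with overlapping backgrounds, and MATN2, matrilin 2, at 10.7, 14.4, 22.3 and 33.6, with its lowest ratio at 1.55. Neither met a rule. MGP, the matrix Gla protein that inhibits calcification, was listed in the RPE1 pools only, at means of 202 and 5.55, and FBLN2 in the HCT116* 8/3 c7 pool only. Fibronectin, SPARC and thrombospondin 1 therefore carried most of the glycoprotein signal of the RPE1 pools, at length-scaled levels of 5007, 1414 and 1368 in the RPE1 5/3 12/3 pool and 6286, 1821 and 2402 in the RPE1* 21/3 pool, out of glycoprotein sums of 8468 and 11227.

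The elastic fibre genes divided. FBN1, which encodes fibrillin 1, the backbone of microfibrils, stood at 4.20, 1.78, 2040 and 2959 CPM and was 899-fold higher in RPE1 (486 to 1661). EFEMP2, fibulin 4, which is needed to crosslink elastin, stood at 1.59, 1.45, 179 and 200 and was 125-fold higher in RPE1. EFEMP1, fibulin 3, a protein made by the retinal pigment epithelium, had means of 15462 and 22794 in the RPE1 pools, 13.0 in the HCT116 5/4 pool, just inside the minimum mean, and was not listed in the HCT116* 8/3 c7 pool. For all 3 genes the RPE1 pools stood far above the HCT116 pools.

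MFAP2, a small microfibril-associated glycoprotein, stood at 57.7, 60.1, 16.4 and 7.10 CPM and was 5.45-fold higher in HCT116. FBLN5, fibulin 5, which tethers elastic fibres to cells, stood at 3.53, 6.86, 1.41 and 0.505 and was 5.84-fold higher in HCT116, where its mean of 9.54 in the RPE1* 21/3 pool lies just under the minimum mean. ELN, which encodes elastin itself, had means of 3.98 in the HCT116* 8/3 c7 pool and 18.7 in the RPE1 5/3 12/3 pool and was not listed in the other 2, and MFAP5 was listed in the RPE1* 21/3 pool only, at 15.4. Elastin was thus at or near the bottom of the lists in both backgrounds, including the pools with high FBN1 and EFEMP2. Per length, MFAP2 was the highest of the 7 elastic fibre genes in the HCT116 pools (136 and 138) but not in the RPE1 pools (41.2 and 18.1).

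Of the interstitial proteoglycans, VCAN was the only one listed in all pools. It encodes versican, a large hyaluronan-binding proteoglycan, and lies on chromosome 5 at 82767437 to 82878122 of GRCh37 on the plus strand. Its pooled means were 18059 in the HCT116 5/4 pool, 1396 in the HCT116* 8/3 c7 pool, 52479 in the RPE1 5/3 12/3 pool and 50833 in the RPE1* 21/3 pool, or 937, 69.6, 2281 and 2691 CPM. It met the rule for RPE1, but its HCT116 pools were 13.5-fold apart and the nearer of them lay within 2.43-fold of an RPE1 pool. BGN, biglycan, and DCN, decorin, small leucine-rich proteoglycans that bind collagen fibrils, were listed in the RPE1 pools only, at means of 1436 and 54.6 and of 125 and 54.0. LUM, lumican, another member of that family, had a mean of 6.399 in the RPE1 5/3 12/3 pool and was not listed elsewhere.

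Of the 23 interstitial genes, 12 could be compared, 8 of them were higher in RPE1 (FBN1, EFEMP2, VCAN, FN1, SPARC, THBS1, ECM1 and SPOCK1), 2 were higher in HCT116 (MFAP2 and FBLN5) and 2 met neither rule. Over all 12963 genes compared, 8.41% were higher in RPE1 and 17.7% were higher in HCT116, the latter close to the share of 2 in 12. Another 3 were listed in the RPE1 pools only with means of at least 10, and 1 in the HCT116 pools only. These patterns had shares of 3.46% and 5.38% over 15168 genes. The median ratio was 54.5 over the 12 compared.

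Basement membrane and interstitial matrix were compared by the summed length-scaled levels of their genes, with a gene that is not listed counted as 0. The basement membrane sum was 372 and 341 in the HCT116 pools and 1445 and 1627 in the RPE1 pools, 4.30-fold higher in RPE1 (3.88 to 4.77). The interstitial sum was 464 and 224 in the HCT116 pools and 10423 and 13978 in the RPE1 pools, 37.5-fold higher in RPE1 (22.5 to 62.5). Both sums were higher in every RPE1 pool than in every HCT116 pool, and the lowest ratio of the interstitial sum exceeded the highest ratio of the basement membrane sum. As a share of the summed level of all genes with a length, the interstitial genes made up 0.0464% and 0.0224% in the HCT116 pools and 1.04% and 1.398% in the RPE1 pools.

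The interstitial sum was 1.25 times the basement membrane sum in the HCT116 5/4 pool, 0.656 times in the HCT116* 8/3 c7 pool, 7.21 times in the RPE1 5/3 12/3 pool and 8.59 times in the RPE1* 21/3 pool. The 2 HCT116 pools thus lay on opposite sides of equal sums, and the RPE1 pools were alike. The order in the HCT116 5/4 pool depended on where SPARC, FBLN1 and FBLN2, which occur in both kinds of matrix, were counted: with these as basement membrane genes, the basement membrane sum was 1.06 times the interstitial sum. FN1 made up 48.0% and 45.0% of the interstitial sum in the RPE1 pools. VCAN was the leading interstitial gene of the HCT116 5/4 pool, with 40.2% of its sum, and MFAP2 that of the HCT116* 8/3 c7 pool, with 61.6%. Without the highest gene of each class, FN1 and LAMB1, the interstitial sum was still 20.9-fold and the basement membrane sum 4.05-fold higher in RPE1.

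**Figure D3:**
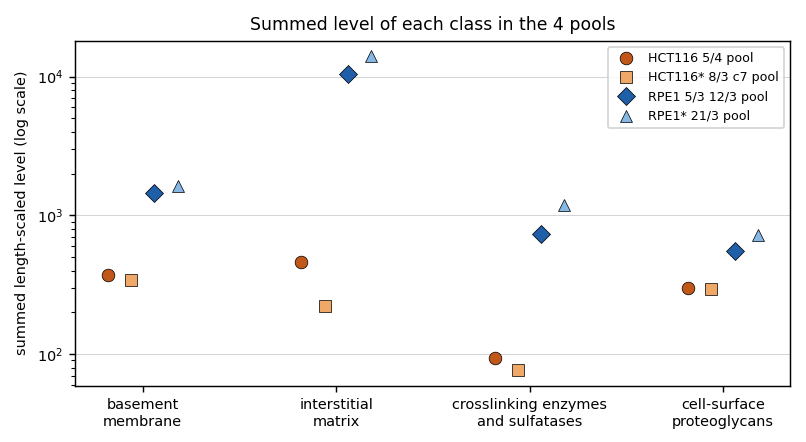
Summed length-scaled level (log scale) of the 13 basement membrane genes, 23 interstitial genes, 6 enzymes and 4 cell-surface proteoglycans, with 1 symbol per pool and no error bars because each pool is 1 mean over 6 libraries of 2 lines. The interstitial sums of the RPE1 pools (10423 and 13978) stand far above all other sums, and the cell-surface sums (301, 296, 552 and 726) differ least between the backgrounds.

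Among the lysyl oxidase-like enzymes, which crosslink collagen and elastin, LOXL1, LOXL2 and LOXL3 were higher in RPE1 and LOXL4 was higher in HCT116. LOXL1, which acts on elastin, stood at 15.4, 10.7, 306 and 414 CPM, 27.7-fold higher in RPE1. LOXL2, which crosslinks collagen IV in basement membranes, stood at 67.5, 59.5, 505 and 956, 11.0-fold higher in RPE1, and was the highest of the 4 in every pool by length-scaled level. LOXL3 stood at 2.86, 3.45, 12.4 and 16.2, and LOXL4 at 6.98, 10.4, 1.06 and 0.359. The last was 13.8-fold higher in HCT116, with means of 24.3 and 6.78 in the RPE1 pools.

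SULF1 and SULF2 encode secreted sulfatases that remove sulfate groups from heparan sulfate, and they were listed in opposite backgrounds. SULF1 had means of 1138 and 554 in the RPE1 pools and was not listed in the HCT116 pools. SULF2 had means of 797 and 586 in the HCT116 pools, 4.03 in the RPE1 5/3 12/3 pool and was not listed in the RPE1* 21/3 pool. Each background thus had a clear mean for 1 sulfatase and at most a trace of the other.

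The carriers of heparan sulfate on the cell surface differed less. SDC1, syndecan 1, stood at 63.7, 79.4, 206 and 238 CPM and was 3.11-fold higher in RPE1. SDC4, syndecan 4, of focal adhesions, stood at 129, 139, 213 and 281, and GPC1, glypican 1, at 197, 168, 204 and 311. Both were higher in each RPE1 pool than in each HCT116 pool, by as little as 1.53-fold and 1.04-fold, and met neither rule. GPC6, glypican 6, was listed in the RPE1 pools only, at means of 1438 and 789.6.

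Pools of the same background were compared next, because they differ in the gained chromosome, in the parental line and in H2B-GFP, which cannot be told apart here. Between the HCT116 pools 5 of 32 genes were at least 2-fold apart, against a background of 6.32% of 14259 genes. All 5 were higher in the HCT116 5/4 pool, a direction that 4.13% of the genes had. They were VCAN (13.5-fold), SPOCK1 (9.65-fold), THBS1 (4.71-fold), FBN1 (2.36-fold) and SPARC (2.35-fold), all interstitial genes and all of the list higher in RPE1. None of the 11 basement membrane genes compared was 2-fold apart, and their largest difference was that of LAMA2 and LAMA3 (both 1.43-fold, higher in the HCT116* 8/3 c7 pool).

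VCAN, SPOCK1 and SPARC lie on chromosome 5, of which HCT116 5/4 has 4 copies. SPARC is found at 151040657 to 151066536 and SPOCK1 at 136310987 to 136934068 of GRCh37, both on the minus strand, and no other gene of the 46 is on that chromosome. All 3 were at least 2-fold higher in the HCT116 5/4 pool, with a median of 9.65-fold, against 2 of 29 genes of the list on other chromosomes, with a median of 1.12-fold. Among all genes of the series 105 of 601 on chromosome 5 (17.5%) and 455 of 13009 on other chromosomes (3.50%) were at least 2-fold higher in that pool, with medians of 1.37-fold and 0.987-fold. The ratios of VCAN and SPOCK1 were far above the median of their chromosome. The other 2 genes higher in that pool, THBS1 and FBN1, lie on chromosome 15. The part of the copy number in these differences was not tested. Of 4 mesenchymal markers compared between the HCT116 pools, 3 were also at least 2-fold higher in the HCT116 5/4 pool, among them VIM (24.9 against 5.302 CPM) and ZEB1 (15.7 against 4.503), and 1, TWIST1, was lower, and their part in the result was not tested. In the RPE1 pools, of which RPE1 5/3 12/3 has 3 copies of chromosome 5, the same 3 genes differed little: the RPE1 5/3 12/3 pool stood at 1.03 times the RPE1* 21/3 pool for SPOCK1, 0.847 times for VCAN and 0.789 times for SPARC. On chromosome 8, of which HCT116* 8/3 c7 has 3 copies, LOXL2 was 1.13-fold higher in the HCT116 5/4 pool and MATN2 1.35-fold higher in the HCT116* 8/3 c7 pool.

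Between the RPE1 pools 6 of 39 genes were at least 2-fold apart, against a background of 4.34% of 13793 genes. MGP (29.9-fold), BGN (21.6-fold), LOXL4 (2.95-fold), FBLN5 (2.79-fold) and MFAP2 (2.31-fold) were higher in the RPE1 5/3 12/3 pool, and LAMA3 (3.53-fold) was higher in the RPE1* 21/3 pool. MGP, LOXL4 and FBLN5 had means under 10 in the lower pool (5.55, 6.78 and 9.54), and 2 of the 6 genes, MFAP2 and LAMA3, had a mean of at least 10 in all 4 pools. DCN missed the rule at 1.91-fold. MGP, DCN and LUM lie on chromosome 12, of which RPE1 5/3 12/3 has 3 copies. MGP and DCN were higher in that pool, and LUM was listed in it alone, at a mean of 6.399, below the minimum. MFAP5, also on chromosome 12, was listed in the RPE1* 21/3 pool only, and BGN is on chromosome X. No share over all genes of chromosome 12 was computed, so no pattern of that chromosome is read from these genes. The part of the copy number was not tested. LAMA4, LAMA5, LAMB1, LAMB2 and LAMC1 differed by at most 1.36-fold between the RPE1 pools, the value of LAMC1.

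**Figure D4:**
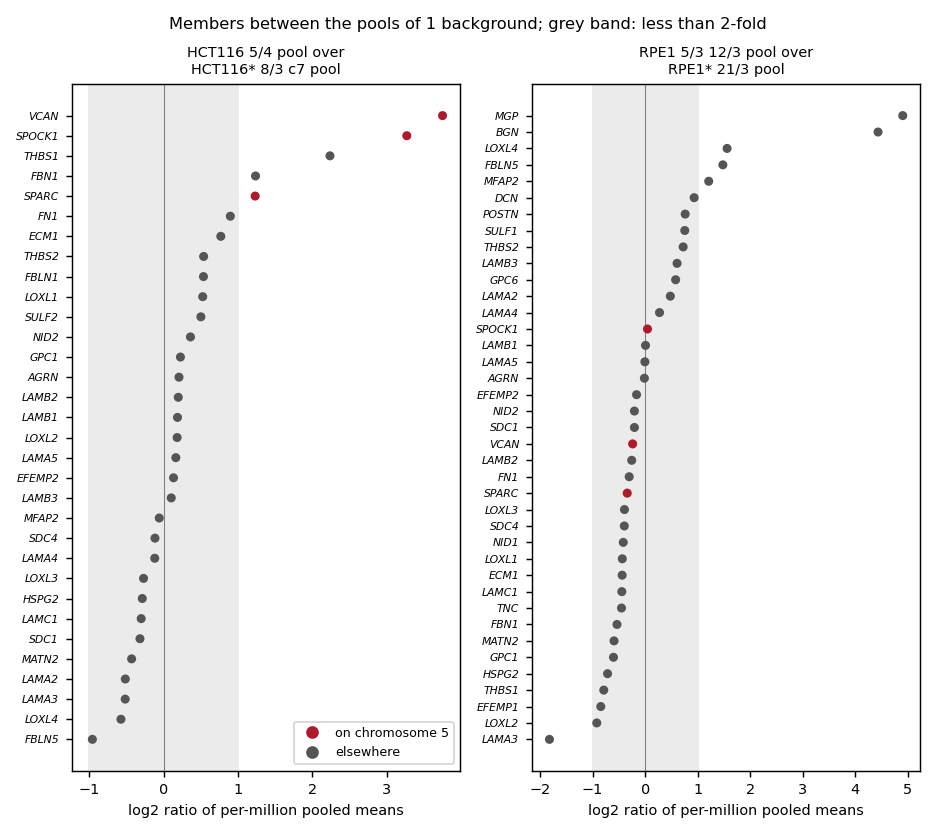
Log2 ratio of pooled CPM values between the 2 HCT116 pools (left, 32 genes) and between the 2 RPE1 pools (right, 39 genes), 1 point per gene, with genes of chromosome 5 in red and a grey band for less than 2-fold. There are no error bars because each value is a ratio of 2 means without a spread. In the left panel the 3 red points lie to the right of the band, and in the right panel they lie near 0. MGP and BGN lie far to the right of the band in the right panel.

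Partner genes that are not among the 46, from a list of collagens, receptors and related matrix genes, were read in the same way. Of 13 basement membrane partners 11 could be compared, 6 were higher in RPE1 and 1 in HCT116, with a median ratio of 2.85, and 1 more, LAMC3, was listed in the HCT116 pools only. The shares over all genes were 8.41% higher in RPE1, 17.7% higher in HCT116 and 5.38% in the HCT116 pools only. COL4A1, a chain of the main collagen IV trimer, had means of 8.85 and 3.38 in the HCT116 pools and 9801 and 18676 in the RPE1 pools, and its partner COL4A2 had a mean of 11.5 in the HCT116 5/4 pool, was not listed in the other and reached 15263 and 23764 in the RPE1 pools. Of the laminin receptors, ITGB4, the integrin chain of hemidesmosomes, stood at 1056, 742, 56.3 and 47.5 CPM and was 17.1-fold higher in HCT116, as LAMA3 was. Of the integrin alpha chains on the list, ITGA6 stood at 219, 181, 90.9 and 118 CPM and met neither rule, and ITGA3 was 3.17-fold higher in RPE1. ITGB1, the common integrin beta chain, was 5.53-fold higher in RPE1, and DAG1, dystroglycan, was nearly level (381, 346, 300.4 and 359 CPM). Of the other collagen IV chains, COL4A5 was 2.85-fold higher in RPE1, and COL4A6 stood at 2.03, 2.94, 1.52 and 1.07 CPM and met neither rule. LAMA3 and ITGB4 were thus higher in HCT116 by the rule, COL4A1, COL4A5, ITGA3 and NID2 higher in RPE1, and LAMB3, COL4A6 and ITGA6 neither. For COL4A2 and NID1, each not listed in 1 HCT116 pool, no call was made, though their means were far higher in the RPE1 pools.

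Of 15 interstitial partners 13 could be compared, 10 were higher in RPE1 and 0 in HCT116 by the rule of size, with a median ratio of 15.6. The shares over all genes compared were 8.41% and 17.7%. ITGA5, the alpha chain of the fibronectin receptor, stood at 68.5, 86.7, 1075 and 1351 CPM, 15.6-fold higher in RPE1. LOX, the founding lysyl oxidase, stood at 1.46, 0.648, 504 and 797 CPM, 650-fold higher in RPE1. The fibrillar collagens were uneven: COL5A2 stood at 3.33, 3.80, 227 and 359.6 CPM and COL1A1 at 35.8, 42.3, 161 and 184, but COL1A2, the second chain of collagen I, had means of only 4.39 and 8.78 in the RPE1 pools and was not listed in the HCT116 pools. High fibronectin and fibrillin mRNA in the RPE1 pools thus went with low means of COL1A2 and of COL3A1 (43.5 and 20.5).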

How the data were processed

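The mRNA of 24 TruSeq libraries was measured, which fell into 8 groups of 3 by their titles. Per the labels and the study's methods, the authors removed adapters with cutadapt, mapped reads to hg19 with TopHat2 2.0.10 (1 location per read), counted exonic reads per RefSeq gene with featureCounts 1.4.3, without a stated strand setting, and normalised with DESeq2. The deposited signal used here is the authors' mean normalised count per gene over the 6 libraries of a table. The tables also hold the authors' own comparison (fold change, its error, statistic and p-values), which was not used, so aneuploid and parental lines are not compared. No table gave values per library, 0 per-sample columns were left out, and depth per library is unknown. With no spread, calls are rules of size and there is no p-value.

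Means were scaled to 1000000 per table. For length-scaled levels they were divided by the canonical, or else the longest, transcript of GENCODE 44 on GRCh37 (hg19), which matched 94.5% to 95.1% of the genes of each table directly or by a RefSeq synonym. Reads shared by near-identical genes or, without strand, by antisense partners cannot be told apart. Promoter windows came from RefSeq on GRCh38.p14. The minimum mean was 10 and the fold 2. The lowest means listed were 1.98 to 3.36, so a gene not listed can be unexpressed or filtered. All 46 genes could be named, together with the fixed lists of partner genes and cell type markers. Of the partner list, 1 gene is not reported here and was left out of the counts. The genes and lists were chosen with earlier results of these data known. Alternatives were other scalings, minimum means, folds and classes. Scripts ran in Python 3.11.15 with numpy 2.4.6, pandas 2.3.3 and matplotlib 3.10.9 and were tested on simulated data.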

Additional observations from a re-analysis of the deposited data

How the results depend on the processing

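Of 48 alternative values, 32 stayed close to the reported value (counts within 1.5 times, other values within the difference between the 2 pools of a background), 15 moved further and 1 reversed. The reversed one was the ratio of basement membrane to interstitial sums in the HCT116 5/4 pool, which rose from 0.803 to 1.06 with SPARC, FBLN1 and FBLN2 counted as basement membrane. That choice also moved the ratio to 0.317 in the RPE1 5/3 12/3 pool and 0.284 in the RPE1* 21/3 pool, and the fold of the basement membrane sum to 7.82. Without division by length this fold was 3.44 and the ratio in the HCT116* 8/3 c7 pool 4.33, and with scaling by the median ratio of all genes the fold was 5.08. Without the highest gene of each class the ratio was 0.1996 and 0.164 in the 2 RPE1 pools. The genes 2-fold apart between the RPE1 pools numbered 10 with no scaling between tables, 2 with a mean of at least 10 in every table, 17 at 1.5-fold and 2 at 4-fold. Those apart between the HCT116 pools numbered 8 at 1.5-fold and 3 at 4-fold, and the genes higher in HCT116 numbered 3 at 4-fold. The direction of both class folds held under every scaling, class and length choice run. No paired analysis was possible because the tables give pooled means and no value per library, and for the same reason no replicate could be left out. Depth per library and spread between replicates limit every value, since neither was known.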

Other observations

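Among the partner genes, COL6A2 and FBN2 differed between the pools of 1 background by more than any of the 46 genes, and they and the related genes beside them were singled out after their values were seen. COL6A2, a chain of collagen VI on chromosome 21, had pooled means of 4174 and 3208 in the HCT116 pools. Its means were 3.34 in the RPE1 5/3 12/3 pool and 5583 in the RPE1* 21/3 pool, 2038-fold higher in CPM in the latter. The 2038-fold value rests on a mean near the lowest listed in the RPE1 5/3 12/3 pool (3.245). COL6A1, another chain of collagen VI on the same chromosome, was 10.3-fold higher in that pool (30.4 against 314 CPM), and COL6A3, the third chain, on chromosome 2, was 1.13-fold higher (16.2 against 18.4). The 2 chains on chromosome 21 thus differed and the chain on chromosome 2 was nearly level. COL18A1, a basement membrane partner also on chromosome 21, was 3.80-fold higher in the RPE1* 21/3 pool (40.5 against 154 CPM). No share over all genes of chromosome 21 was computed, and the part of the copy number was not tested.

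FBN2, which encodes fibrillin 2 of developing microfibrils and lies on chromosome 5, had pooled means of 471 in the HCT116 5/4 pool and 2.33 in the HCT116* 8/3 c7 pool, 210-fold apart in CPM, whereas FBN1 on chromosome 15 was 2.36-fold apart. TGFBI, a secreted matrix protein, and LOX, both on chromosome 5, were 6.98-fold and 2.26-fold higher in the HCT116 5/4 pool. Their means were 15.8 and 28.2 there and 2.35 and 13.0 in the HCT116* 8/3 c7 pool. The 210-fold and 6.98-fold values rest on means near the lowest listed in the HCT116* 8/3 c7 pool (1.98). Between the RPE1 pools FBN2 was nearly level (129 and 126 CPM) and TGFBI was 2.32-fold higher in the RPE1 5/3 12/3 pool. These values come from pools of 2 lines each, and gained chromosome, parental line and H2B-GFP cannot be told apart in them.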
